A study of Cucumis sativus with 9 samples.

Results

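Cucumber gene models that carry domains of mobile elements, or the chromo domain that many of those elements share with chromatin proteins, were followed in heated leaves. The members were chosen by the domain names that the deposited tables give each gene. A gene was taken when its description held the chromo domain (PF00385), a reverse transcriptase domain (PF00078 or PF07727), the integrase core (PF00665), a retrotransposon gag protein (PF03732), the gag polypeptide of copia-type elements (PF14223) or the dimerisation region of hAT transposases (PF05699). This rule found 94 of 24880 genes. Of these 94, 74 were expressed, here a mean FPKM of 0.1 or more over the 7 libraries of the main set. FPKM is the number of fragments scaled to the length of the gene and to the depth of the library.

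Retrotransposons copy themselves through RNA. Their gag protein packs that RNA, reverse transcriptase writes it into DNA, and integrase inserts the copy; copia and gypsy elements differ in the order of these parts, and the integrase of some gypsy elements ends in a chromo domain. The hAT elements move as DNA by means of a transposase, and plant genomes hold genes derived from such transposases that no longer move. Plants keep mobile elements quiet by DNA methylation, histone marks and small RNAs, and the Arabidopsis retrotransposon ONSEN is a known example of an element transcribed under heat. Chromo domains also occur in cell proteins. In Arabidopsis, chromomethylases join a DNA methylase to a chromo domain, remodellers of the PICKLE type join an SNF2 helicase to PHD and chromo domains, and a chloroplast signal recognition particle subunit joins chromo domains to ankyrin repeats.

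Leaves of 3-week-old seedlings of the cultivar 'Chinese long' 9930 were sampled at 0 h (HT0h), or after 3 h (HT3h) or 6 h (HT6h) at 42 °C, with 3 libraries per time. The plants had grown at 25 °C by day and 18 °C by night with 16 h of light. Because unheated leaves were taken at 0 h only, the effect of heat cannot be told apart from that of the time of day. The main set left out HT3h_2 and HT6h_2, as the study's own analysis did for lack of uniformity, and their values are given beside the others.

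The libraries held between 18972139 and 22942239 fragments on genes. HT3h_2 and HT6h_2 stood farthest from the unheated libraries, with a mean r of 0.901 and 0.896 across genes against 0.924 to 0.942 for the other heated libraries. The tissue label fitted the leaf markers, since each of 20 chlorophyll a/b binding protein genes had fragments in every library. Their summed FPKM lay at 57579.9 to 64751 in HT0h, 22769 to 66871 in HT3h and 10556 to 24189 in HT6h. A Rubisco small chain gene, the other mesophyll marker, did not follow this fall. It had 12903.5 to 15395 FPKM in HT0h, 6684 to 21310 in HT3h and 10536 to 24366 in HT6h. Phloem protein 2 genes summed to 193 to 253 FPKM in HT0h, 269 to 428 in HT3h and 354 to 521 in HT6h. Small heat shock protein genes of the Hsp20 family summed to 333 to 384 FPKM in HT0h, 1478 to 1789 in HT3h and 697 to 797 in HT6h. Core histone genes, which mark dividing cells, summed to 8337 to 9033 FPKM in HT0h, 1725 to 1901 in HT3h and 1673 to 1715.5 in HT6h. Cyclin genes, listed for the same cells, fell less, from 885 to 935 FPKM in HT0h to 479 to 653 in HT3h and 511 to 560 in HT6h. In whole leaves, fewer cells of a type and less RNA per cell cannot be told apart.

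Expression of these gene models was low but not rare. Their median level was 0.903 FPKM against 5.32 FPKM over all genes, and 46 of the 94 (48.9%) reached 1 FPKM against 66.5% of all genes. The share at 0.1 FPKM or more was 78.7%, beside 78.0% of all genes. Of the 94, 61 had at least 1 fragment in each of the 9 libraries and 13 had none in any. At the edge of the expressed set lay CsaV3_5G014550 (0.131 FPKM) and a reverse transcriptase model of chromosome 6 (0.152 FPKM), and just outside it a pair of integrase models on opposite strands of chromosome 2 (0.0721 and 0.0673 FPKM). In all, 6 expressed members had an HT0h mean under 0.1 FPKM and passed this limit through the heated libraries only.

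Position and annotation set the members apart in ways the choice had not used. Gene models without a CsaV3 identifier, given below as unnamed models by their positions, made up 33 of the 94 (35.1%) against 2.26% of all genes. Scaffolds not placed on a chromosome held 15 of them (16.0%) against 3.55% of all genes. Chromosomes 1 to 6 held 11, 13, 12, 11, 14 and 13 members, and chromosome 7 held 5. Their median length was 1599 bases, close to the 1511 bases of all genes. A domain known from other proteins stood in 17 of the descriptions, so these models are not all remnants of elements.

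Levels differed by domain class. All 14 hAT members were expressed, with a median of 10.4 FPKM, above the median of all genes. The 16 members with a chromo domain and no domain of the other kinds had a median of 3.56 FPKM and held the highest value of the set. The 25 gag members had a median of 0.849 FPKM and the 17 copia-type members 0.642 FPKM, with 4 and 6 of them without a fragment in any library. The 13 other reverse transcriptase members (0.387 FPKM), of which 11 had no CsaV3 identifier, and the 7 integrase members (0.213 FPKM) were lowest. The remaining 2 members join a reverse transcriptase to an intron maturase domain, and their levels are given further on.

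**Figure D1:**
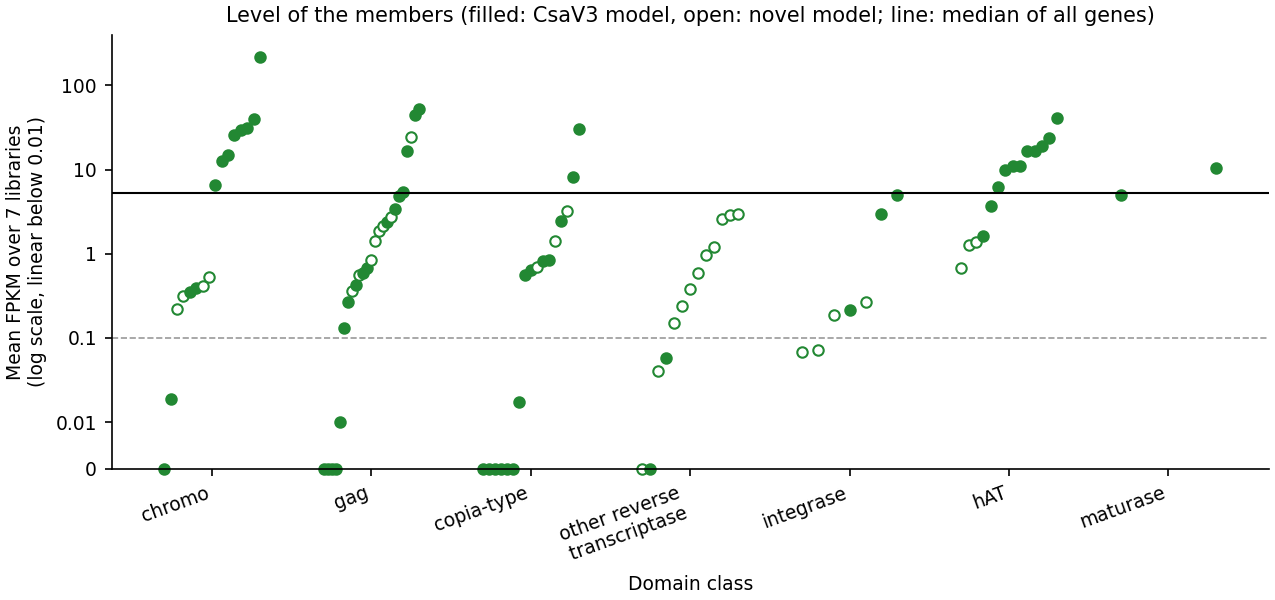
Mean FPKM over the 7 libraries of the main set (vertical axis, log scale, linear below 0.01) for each of the 94 members by domain class, filled for CsaV3 models and open for models without a CsaV3 identifier. The solid line is the median of all genes, 5.32 FPKM, and the dashed line the 0.1 FPKM that counts as expressed; 9 of the 14 hAT members lie above the solid line.

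In heated leaves, 23 of the 74 expressed members (31.1%) were called higher or lower at 3 h or 6 h, beside 26.5% of all genes tested. Calls were made by limma on log2(FPKM + 0.1) and needed both a Benjamini-Hochberg adjusted p up to 0.05, taken over every gene tested, and a log2 fold change of at least 1 in either direction. At 3 h, 14 members were called higher, 18.9% of those tested, where 10% of all genes were called higher; 3 were called lower (4.05%), where 8.29% of all genes were. At 6 h, 9 were called higher (12.2%), beside 12.2% of all genes, and 7 lower (9.46%), beside 10% of all genes. Over the 7 libraries, the 6 h counts and the 3 h count of lower genes thus lay at or under the share of all genes. The 3 h count of higher genes lay above it. The 3 h count of 14 was 9 without HT0h_1 or without HT3h_1, and 3 lower calls became 2 without HT0h_1, HT0h_2 or HT3h_1 and 5 without HT3h_3; the 6 h count of 7 lower genes was 3 without HT0h_2 and 4 without HT0h_1, HT6h_1 or HT6h_3. The share of all genes called without single libraries is not given here. Over all 9 libraries 15 members (20.3%) were called higher and 5 (6.76%) lower at 3 h, beside 10.9% and 9.57% of all genes. At 6 h 11 (14.9%) were called higher and 5 (6.76%) lower, beside 12.3% and 10.1%. Over the 9, the 6 h count of higher genes thus lay above the share of all genes. Among the called members, 8 were higher at both times, 2 lower at both, 6 higher at 3 h alone and 1 at 6 h alone, and 1 lower at 3 h alone and 5 at 6 h alone. Both comparisons share the HT0h libraries, and the like split of all called genes is not given here. The median log2 fold change of the expressed members was 0.33 at 3 h and 0.24 at 6 h, beside -0.02 and -0.00 for all genes; over all 9 libraries the members' medians were 0.08 and 0.24. Of the 6 members that passed the expression limit through heated libraries alone, 4 (CsaV3_UNG167280, CsaV3_1G031080, CsaV3_1G028570 and CsaV3_UNG167240) were among the 3 h rises and 3 among the 6 h rises, which the limit itself favours.

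**Figure D2:**
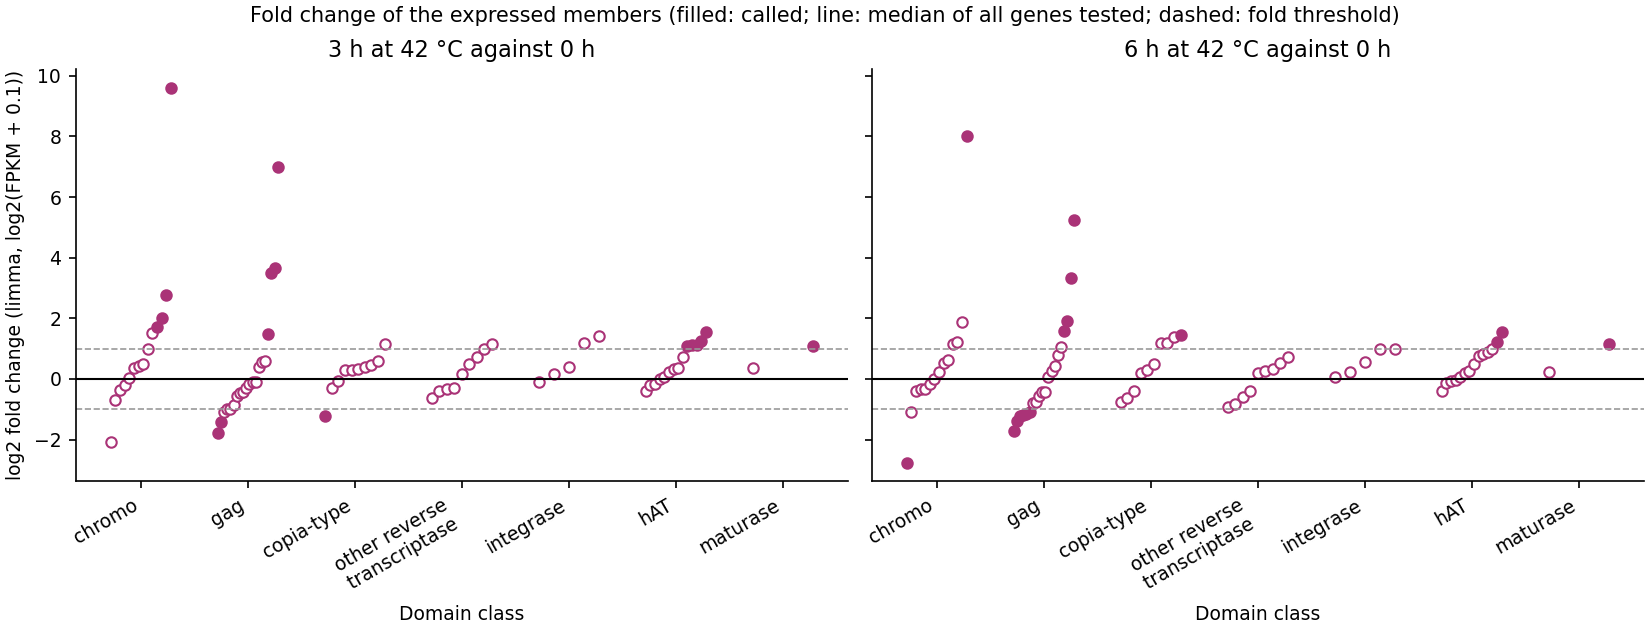
Log2 fold change of the 74 expressed members (vertical axis) by domain class (horizontal axis), at 3 h on the left and 6 h on the right, filled where called. The solid line is the median of all genes tested and the dashed lines the fold threshold; chromo and gag members spread most widely in both directions, and no hAT member lies below the lower dashed line. Values of members at 0 FPKM in HT0h depend on the 0.1 added before the logarithm.

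**Figure D3:**
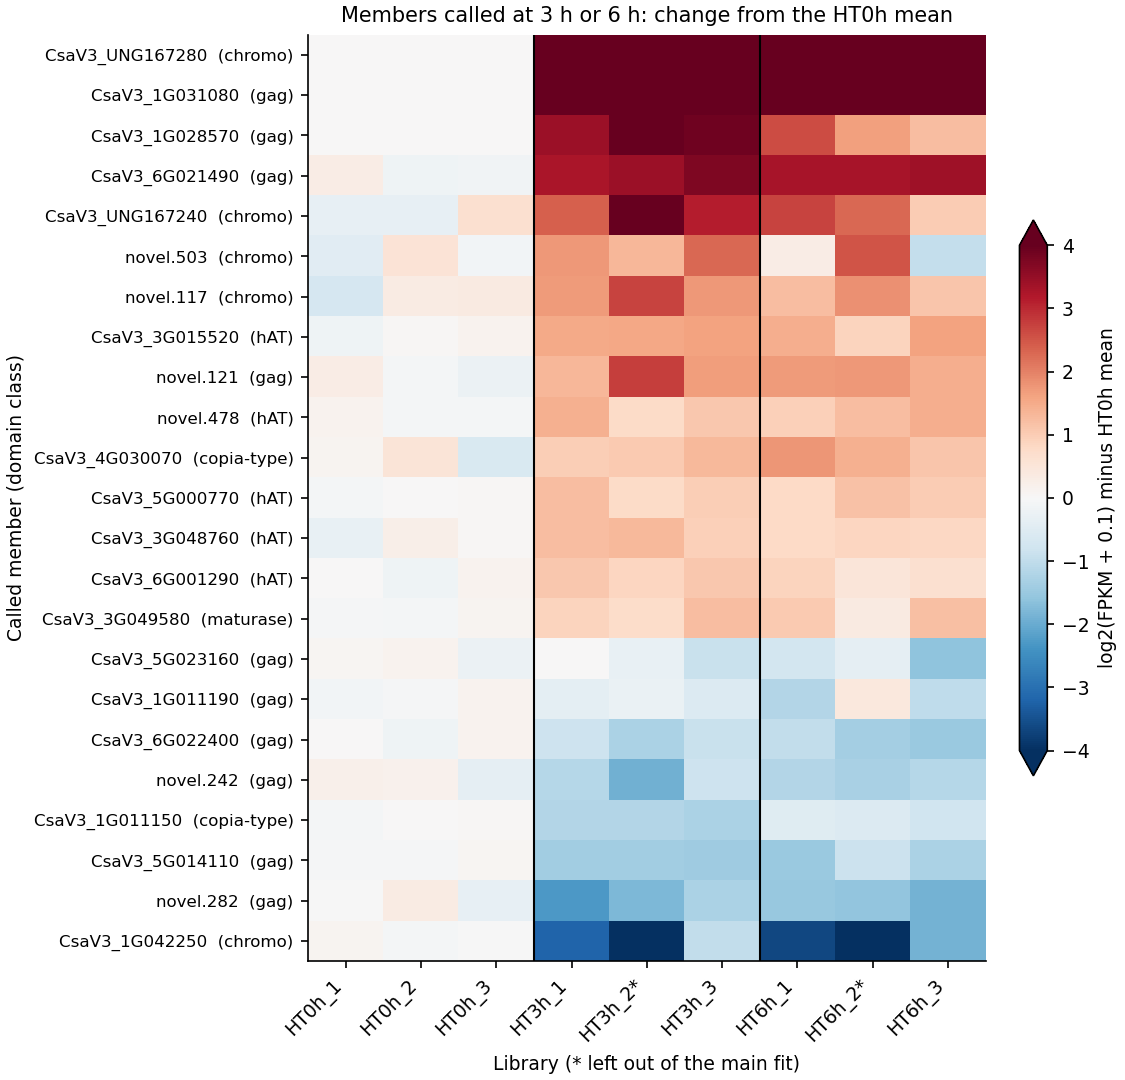
Change of log2(FPKM + 0.1) from the HT0h mean (colour, saturated beyond 4 in either direction) in each of the 9 libraries (horizontal axis) for the 23 called members (vertical axis, with domain class), sorted by their 3 h value; names not starting with CsaV3 are the tables' own names for these unnamed models. CsaV3_UNG167280 and CsaV3_1G031080 exceed the scale in all 6 heated libraries, and CsaV3_1G042250 is lowest in HT3h_2 and HT6h_2.

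The steepest rises belonged to chromo domain and gag models that gave no fragment in any unheated library. CsaV3_UNG167280 is annotated with a chromo domain alone and spans positions 66908 to 76229 of scaffold87. It had 0 FPKM in each HT0h library, 57.6, 173 and 104 FPKM in HT3h_1 to HT3h_3, and 35.2, 34.2 and 19.2 FPKM in HT6h_1 to HT6h_3. All 6 heated libraries thus lay above all unheated ones, and the 3 HT3h libraries above the 3 HT6h libraries. Against a floor of 3 fragments over the HT0h group, its level was at least 1167-fold higher at 3 h and at least 384-fold higher at 6 h over the 7 libraries, and at least 1629-fold and 422-fold higher over all 9. By limma the adjusted p was 2.5e-05 at 3 h and 3.8e-05 at 6 h, and both calls held in all 19 alternatives. The gene passed the expression limit through the heated libraries alone, which favours such calls, so the p-values are no separate evidence. No other member of the chromo class reached 2 FPKM in a heated library after an HT0h mean below 0.1.

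CsaV3_1G031080, a gag and chromo domain model on chromosome 1 (positions 18270244 to 18273977), followed the same course at a lower level. It had 0 FPKM in the 3 HT0h libraries, 9.43, 20.9 and 16.8 FPKM in the HT3h libraries and 4.74, 5.31 and 2.87 FPKM in the HT6h libraries. Its level was at least 343-fold higher at 3 h and at least 97.5-fold higher at 6 h over the 7 libraries, with limma's adjusted p at 9.4e-05 and 0.00024. As with the previous gene, every HT3h value exceeded every HT6h value, and neither call was lost in the 19 alternatives. CsaV3_1G031080 too passed the expression limit through the heated libraries alone, so its p-values are no separate evidence.

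A further pair of models of this kind was picked out after its values were seen, since its mean level is under the 0.5 FPKM set for naming genes. CsaV3_1G028570, with gag and chromo domains and on chromosome 1 at positions 15553818 to 15559224, had 0 FPKM at 0 h, 0.965, 2.19 and 1.37 FPKM at 3 h and 0.515, 0.212 and 0.134 FPKM at 6 h. That is at least 44.2-fold higher at 3 h and at least 11.9-fold higher at 6 h over the 7 libraries, and the 6 h libraries lay below the 3 h ones. No test is given for this pair, which was chosen for its pattern. CsaV3_UNG167240, a chromo domain model at positions 27330 to 30861 of the same scaffold87, had 0, 0 and 0.092 FPKM at 0 h, 0.548, 1.92 and 0.987 FPKM at 3 h, and 0.709, 0.506 and 0.153 FPKM at 6 h. Its unheated value rests on 2 fragments in HT0h_3, and the ratio of 3 h to 0 h was 25.7 (95% exact interval 6.65 to 220.1, counting error only). That interval is a description of so few fragments and not a test, since the gene was chosen for its values.

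Among all 24880 genes, 29 (0.117%) had no fragment in HT0h and 3 or more in each of the 6 heated libraries, and 3 of these were members: CsaV3_UNG167280, CsaV3_1G031080 and CsaV3_1G028570. That is 3.19% of the 94. How fragments that fit several similar copies were counted is not given in the sources used here, so these genes may share fragments. The fragments on CsaV3_UNG167280 were 3.37 to 4.58 times those on CsaV3_1G031080 in every heated library, while those on CsaV3_1G031080 were 6.33 to 17.2 times those on CsaV3_1G028570. Presence of fragments in heated leaves says nothing here of whether an element moved. Of the 4 members that join gag and chromo domains without a reverse transcriptase, CsaV3_1G031080 and CsaV3_1G028570 rose, while CsaV3_5G014110 and CsaV3_5G023160, which carry domains of cell proteins too, fell.

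**Figure D4:**
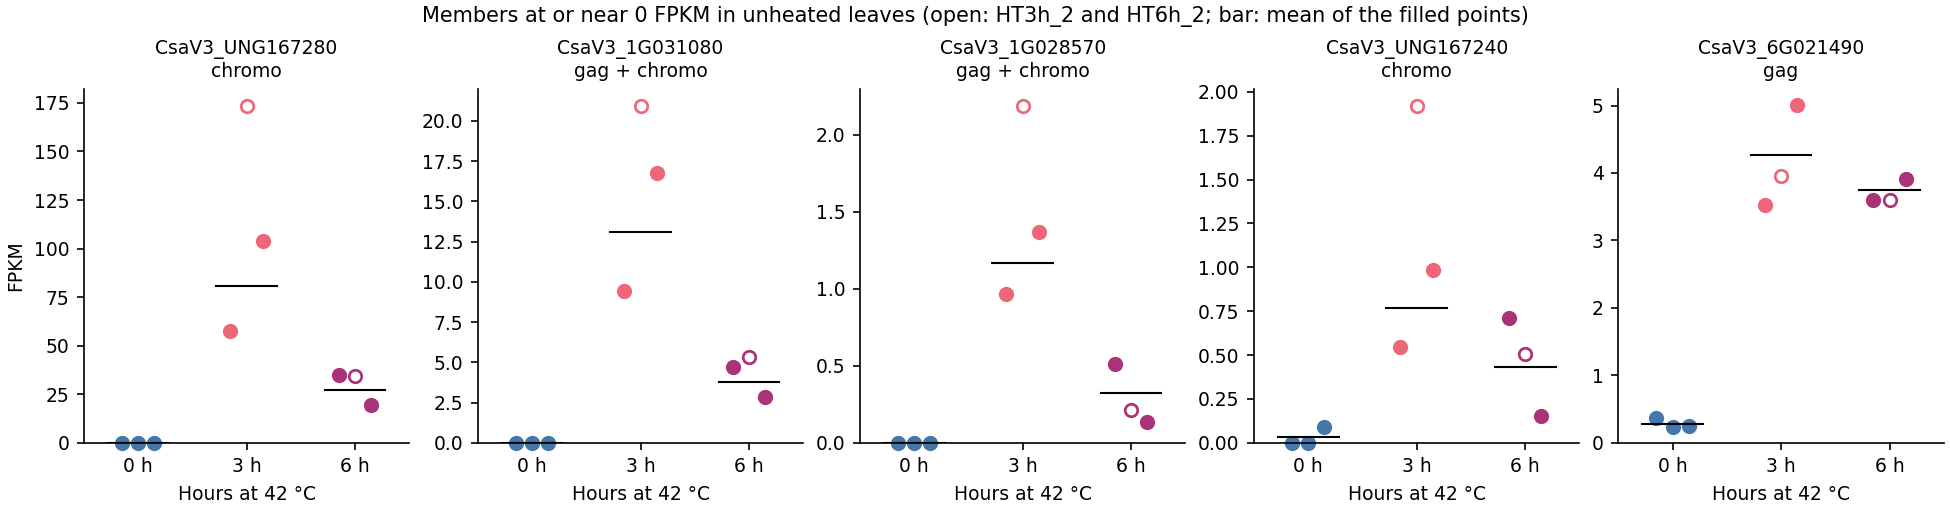
FPKM (vertical axis, a scale for each gene) by hours at 42 °C for 5 members with little or no signal in unheated leaves; each point is a library, open for HT3h_2 and HT6h_2, and the bar is the mean of the filled points. The first 3 genes are at 0 in all unheated libraries, and the first 4 have their highest value in HT3h_2, whereas CsaV3_6G021490 holds a like level at 3 h and 6 h.

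Of the 20 expressed gag members, 4 rose (20%, beside 10% of all genes) and 2 fell (10%, beside 8.29%) at 3 h. At 6 h 4 rose (20%, beside 12.2%) and 6 fell (30%, beside 10%). CsaV3_1G031080 and CsaV3_1G028570, among the rises at each time, passed the expression limit through heated libraries only, which favours such calls. CsaV3_6G021490, a short gag model on the minus strand of chromosome 6 (positions 14535562 to 14536130), had 0.363, 0.241 and 0.248 FPKM in HT0h, 3.52, 3.96 and 5.003 FPKM in HT3h and 3.60, 3.61 and 3.91 FPKM in HT6h. Unlike the models above, it stayed at the 3 h level; its log2 fold change was 3.50 ± 0.31 at 3 h and 3.34 ± 0.31 at 6 h (SE; limma, adjusted p = 0.00061 and 0.00054). The 0 h value rests on 7 fragments, and the ratio to 0 h was 15.1 (95% exact interval 6.99 to 38.8) at 3 h. It lies inside CsaV3_6G021480 of the opposite strand, a gene of the Ulp1 protease family, whose log2 fold changes were -0.02 and -0.34. Whether counting used strand is not given in the sources used here.

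An unnamed model of 8826 bases on chromosome 2 (positions 16328867 to 16337910) combines a gag protein with a MULE transposase domain, the catalytic part of Mutator-like DNA elements. Its values were 1.22, 0.909 and 0.798 FPKM in HT0h, 2.54, 7.18 and 3.304 FPKM in HT3h and 3.37, 3.44 and 2.78 FPKM in HT6h. All heated libraries exceeded all unheated ones, and HT3h_2 stood far above the rest. The log2 fold change was 1.498 at 3 h and 1.58 at 6 h (limma, adjusted p = 0.0093 and 0.0066), and the 3 h call was lost with a pseudocount of 1 (0.99) and with a replicate block (1.46).

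The gag members that fell included models fused to domains of cell proteins. CsaV3_5G014110 joins gag and chromo domains to a phosphomannomutase, an enzyme of mannose metabolism needed for ascorbate and protein glycosylation. It had 25.0, 25.4 and 27.7 FPKM in HT0h, 9.88, 9.87 and 9.58 FPKM in HT3h and 9.18, 14.3 and 10.7 FPKM in HT6h. The heated libraries all lay below the unheated ones, while HT3h and HT6h overlapped, and the log2 fold changes were -1.41 ± 0.13 and -1.38 ± 0.13 (SE; limma, adjusted p = 0.0007 and 0.00059), called in all 19 alternatives.

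CsaV3_6G022400, which carries both domains of the pyridine nucleotide-disulphide oxidoreductases, flavin enzymes of redox balance, was the most abundant gag member. Its FPKM was 75.8, 66.1 and 83.3 in HT0h, 41.7, 31.3 and 40.4 in HT3h, and 38.1, 29.1 and 26.4 in HT6h. Every heated library was below every unheated one. The log2 fold change was -0.86 at 3 h, inside the fold threshold, and -1.23 at 6 h, where it was called (limma, adjusted p = 0.0027); without HT6h_3 it was -0.97 and not called.

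CsaV3_5G023160 carries a cold-shock domain, an RNA-binding fold, beside zinc knuckle, gag and chromo domains. It had 59.2, 61.8 and 48.0 FPKM in HT0h, 56.9, 45.9 and 30.02 FPKM in HT3h and 33.5, 44.1 and 18.3 FPKM in HT6h. The 3 h libraries overlapped the unheated ones, and the 6 h libraries lay below them. At 6 h the log2 fold change of -1.17 was called (limma, adjusted p = 0.031), but it was lost over all 9 libraries (-0.90), without any 1 HT0h library (-1.10 to -1.29), without HT6h_3 (-0.74) and with scaling by counted fragments (-0.98).

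The other gag models that fell were low. An unnamed model on chromosome 5 (positions 10174703 to 10182700), with an aspartyl protease and a zinc knuckle as in a gypsy-type element, had 2.37, 3.04 and 1.89 FPKM in HT0h, 0.409, 0.609 and 0.938 FPKM in HT3h and 0.766, 0.741 and 0.576 FPKM in HT6h, with log2 fold changes of -1.78 and -1.70 (limma, adjusted p = 0.017 at each time). Those calls were lost without HT0h_1, without HT0h_2 or without HT3h_1 at 3 h, and without HT0h_1, HT0h_2, HT6h_1 or HT6h_3 at 6 h, with values from -1.26 to -1.88. It shares 5529 bases with an opposite-strand unnamed model that was called lower at both times too (-1.88 and -2.22), and fragments of the 2 strands may not have been told apart. CsaV3_1G011190 had 4.03, 4.28 and 4.88 FPKM in HT0h, 3.35, 3.66 and 3.00 FPKM in HT3h and 1.91, 5.91 and 2.13 FPKM in HT6h. HT6h_2 was thus its highest library, and the 6 h log2 fold change of -1.08 over 7 libraries (limma, adjusted p = 0.0083) was -0.58 and not called over all 9. An unnamed gag model with a zinc knuckle, which spans positions 11533373 to 12001659 of chromosome 4 and overlaps 3 other models, had 3.00 to 4.53 FPKM in HT0h, 0.97 to 2.14 FPKM in HT3h and 1.54 to 1.73 FPKM in HT6h. It was called lower at 6 h (-1.15; limma, adjusted p = 0.017), a call lost without HT0h_1, HT0h_2, HT6h_1 or HT6h_3 (-1.05 to -1.17). The opposite-strand model it overlaps most had log2 fold changes of -0.91 and -0.78, not called. By contrast an abundant gag model on chromosome 5 (positions 6914757 to 6917432) was not called, with 28.3, 21.5 and 19.5 FPKM in HT0h, 17.5, 21.8 and 26.4 in HT3h and 24.7, 14.3 and 30.7 in HT6h.

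In the chromo class, 4 of 14 expressed members were called higher at 3 h (28.6%, beside 10% of all genes) and none lower (beside 8.29%). At 6 h 1 was called in each direction (7.14% each, beside 12.2% higher and 10% lower). Among the rises, CsaV3_UNG167280 (both times) and CsaV3_UNG167240 (3 h) passed the expression limit through heated libraries only, which favours such calls. Over all 9 libraries 3 were called higher (21.4%, beside 12.3%) and 1 lower (7.14%, beside 10.1%) at 6 h. The deepest fall in the whole set was that of CsaV3_1G042250, which joins a C-5 cytosine DNA methylase, a BAH domain and a chromo domain, the arrangement of the Arabidopsis chromomethylases. It had 49.1, 42.6 and 44.6 FPKM in HT0h, 4.79, 1.13 and 23.1 FPKM in HT3h and 3.55, 1.24 and 12.2 FPKM in HT6h. All heated libraries were below all unheated ones, but HT3h_3 and HT6h_3 kept several times the level of the others. The log2 fold change was -2.09 ± 0.70 at 3 h, not called (SE; limma, adjusted p = 0.057), and -2.76 ± 0.70 at 6 h, called (adjusted p = 0.020). Over all 9 libraries it was called at both times, at -3.13 and -3.53. The 3 h change was also called without HT3h_3 (-3.22), and the 6 h call was lost without any 1 HT0h library, at nearly the same fold (-2.70 to -2.81), and without HT6h_1 (-1.89).

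CsaV3_3G001160, the other member with the same 3 domains, was not called. Its FPKM was 39.2, 44.7 and 47.4 in HT0h, 41.7, 26.8 and 33.8 in HT3h and 36.8, 50.4 and 32.7 in HT6h, so that heated and unheated libraries overlapped. The log2 fold changes were -0.22 and -0.33 (limma, adjusted p = 0.31 and 0.12). Another DNA methylase gene, CsaV3_5G013990, has a BAH domain and the replication foci domain of maintenance methylases and no chromo domain. It had 12.2, 10.8 and 11.8 FPKM in HT0h, 1.31, 0.667 and 2.89 FPKM in HT3h and 1.55, 1.76 and 2.27 FPKM in HT6h, and was called lower at both times (-2.51 and -2.56). The core histone sum fell beside both of the falling methylases, with 15 of 23 tested core histone genes called lower at 3 h and 16 at 6 h; the part of dividing cells in these falls was not tested.

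**Figure D5:**
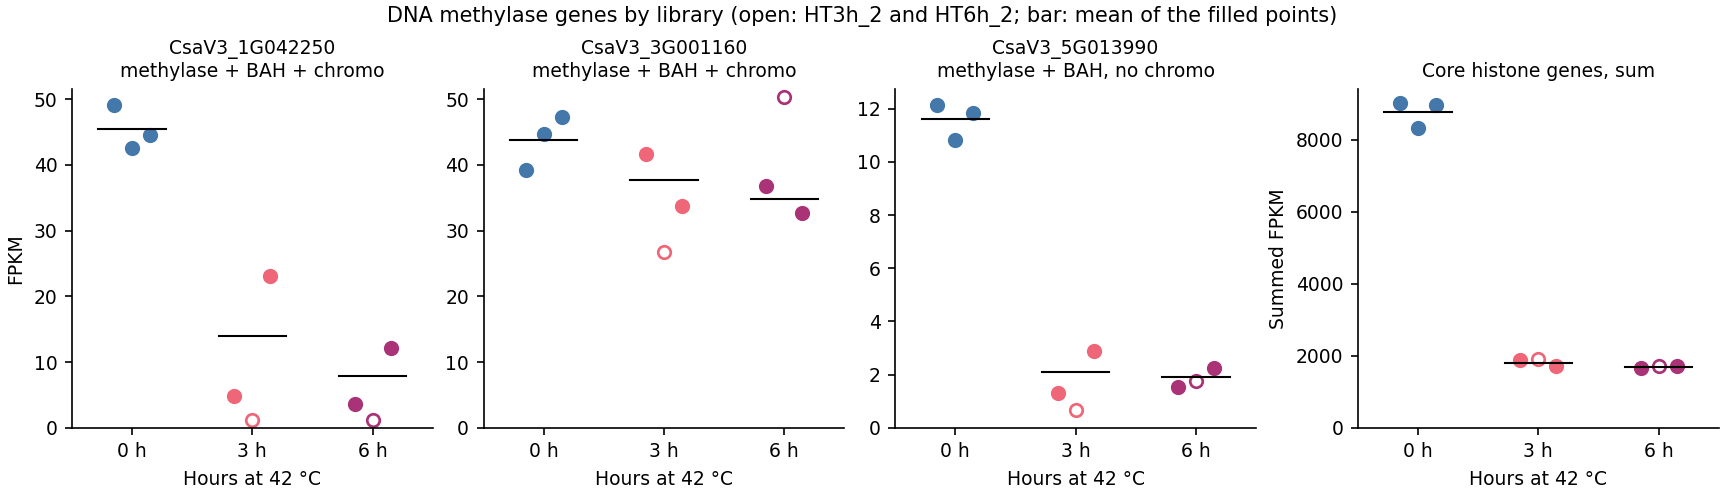
FPKM of the 2 methylase, BAH and chromo domain members, of a methylase gene without a chromo domain, and of the core histone genes summed (vertical axes from 0) by hours at 42 °C; each point is a library, open for HT3h_2 and HT6h_2, and the bar is the mean of the filled points. CsaV3_1G042250, CsaV3_5G013990 and the histone sum are below every unheated library in all 6 heated ones, whereas CsaV3_3G001160 overlaps.

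The most abundant member was CsaV3_7G001450, which joins a chromo domain to ankyrin repeats as the chloroplast signal recognition particle subunit of Arabidopsis does, a carrier of light-harvesting proteins. It had 159, 163 and 129.7 FPKM in HT0h, 388, 362 and 231 FPKM in HT3h and 265, 265 and 172 FPKM in HT6h. Every heated library lay above every unheated one. The log2 fold change at 3 h was 1.00 ± 0.29 (SE; limma, adjusted p = 0.035), just below the fold threshold, so it was not called; over all 9 libraries it was 1.09 and called. At 6 h it was 0.51 (adjusted p = 0.20 by limma).

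The members with remodeller domains were not called. CsaV3_4G036700, with SNF2, helicase and PHD domains, had 29.3, 29.3 and 29.5 FPKM in HT0h, 30.8, 26.1 and 29.4 in HT3h and 30.2, 25.3 and 27.9 in HT6h, and its log2 fold changes were 0.03 and -0.02 (SE 0.11). CsaV3_6G052880, of the same domains, had 5.40, 5.54 and 6.00 FPKM in HT0h, 8.52, 9.19 and 7.31 in HT3h and 6.89, 7.39 and 6.41 in HT6h. Its heated libraries were all higher, but the log2 fold changes of 0.48 and 0.23 were not called (limma, adjusted p = 0.068 and 0.31).

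The remaining calls in the chromo class rested on few fragments. An unnamed model on chromosome 2 (positions 13626365 to 13631845) had 0.0964, 0.288 and 0.297 FPKM in HT0h, 0.906, 1.94 and 0.933 FPKM in HT3h and 0.628, 1.01 and 0.574 FPKM in HT6h, with 7 fragments at 0 h in all. Every heated library lay above every unheated one, while HT3h and HT6h overlapped, and the 3 h log2 fold change was 1.71 (limma, adjusted p = 0.027), lost without HT0h_1 (1.38), HT3h_1 (1.73) or HT3h_3 (1.69). The call was also lost with a pseudocount of 1 (0.65), by voom on fragments (1.91) and with a replicate block (1.87). This model shares 3122 bases with an opposite-strand reverse transcriptase member that did not reach the expression limit. Another unnamed model, on scaffold31 (positions 415451 to 417454) and named after its values were seen, so with no test here, had 0.103 to 0.307 FPKM in HT0h and 0.603 to 1.27 FPKM in HT3h. Its 6 h values of 0.239, 1.49 and 0.0436 FPKM spanned the unheated range.

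Among the 14 hAT members, 5 were called higher at 3 h (35.7%, beside 10% of all genes) and 2 at 6 h (14.3%, near the 12.2% of all genes). None was called lower at either time, beside 8.29% and 10% of all genes, and 14 members are few to read this from. CsaV3_3G015520, with the BED zinc finger that binds DNA in such transposases, had 9.85, 11.6 and 12.3 FPKM in HT0h, 32.0, 32.7 and 34.1 FPKM in HT3h and 30.9, 20.9 and 34.7 FPKM in HT6h. All heated libraries lay well above the unheated ones, while HT3h and HT6h overlapped, and the log2 fold changes of 1.55 ± 0.14 and 1.54 ± 0.14 (SE; limma, adjusted p = 0.00063 and 0.0005) were called in all 19 alternatives. CsaV3_5G000770, the most abundant hAT member, had 24.7, 26.3 and 27.0 FPKM in HT0h, 61.1, 44.5 and 51.5 FPKM in HT3h and 44.97, 58.3 and 52.4 FPKM in HT6h. All of its heated libraries were higher; the log2 fold change was 1.11 at 3 h (limma, adjusted p = 0.0016) and 0.90 at 6 h, and the 3 h value fell just under the threshold over all 9 libraries (1.00) and without HT3h_1 (0.99).

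CsaV3_3G048760 had 5.69, 8.25 and 7.18 FPKM in HT0h, 16.6, 17.3 and 13.7 in HT3h and 12.3, 12.7 and 12.5 in HT6h, with a log2 fold change of 1.10 at 3 h (limma, adjusted p = 0.006) that was 0.96 without HT0h_1 or without HT3h_1. CsaV3_6G001290 had 6.54, 5.75 and 7.07 FPKM in HT0h, 13.6, 11.8 and 13.7 in HT3h and 12.1, 9.13 and 10.03 in HT6h, with 1.07 at 3 h (limma, adjusted p = 0.0036), and 1.00 and no call without HT0h_2. It shares 1736 bases with CsaV3_6G001300 on the opposite strand, an ATPase gene at 140.9 FPKM in HT0h that was not called. A low unnamed model on scaffold104 (positions 91728 to 96205) had 0.379, 0.317 and 0.314 FPKM in HT0h, 1.06, 0.637 and 0.819 in HT3h and 0.752, 0.928 and 1.08 in HT6h. Its heated libraries all exceeded the unheated ones, while HT3h and HT6h overlapped, and the log2 fold changes of 1.24 and 1.20 (limma, adjusted p = 0.038 at each time) were lost without any 1 HT0h library and without any 1 library of the heated group compared, with values from 0.97 to 1.44. With a pseudocount of 1, the scaffold104 model had log2 fold changes of 0.53 at 3 h and 0.52 at 6 h, and neither was called. The other 9 hAT members had log2 fold changes from -0.39 to 0.71 at 3 h. Summed over the class, hAT members gave 121 to 140.1 FPKM in HT0h, 186 to 200.05 in HT3h and 167 to 188 in HT6h.

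Copia-type, other reverse transcriptase and integrase members gave few calls, in classes of 10, 9 and 5 expressed members. Of all genes tested, 26.5% were called at 3 h or 6 h. CsaV3_1G011150, with the copia gag polypeptide alone, had 10.6, 11.3 and 11.3 FPKM in HT0h, 4.83, 4.81 and 4.52 in HT3h and 7.80, 7.61 and 6.35 in HT6h. Its 3 h libraries were all below its 6 h libraries, and those below the unheated ones; the log2 fold change of -1.22 ± 0.16 at 3 h (SE; limma, adjusted p = 0.0023) was called in all 19 alternatives, and -0.64 at 6 h was not. CsaV3_4G030070, a reverse transcriptase fragment of 351 bases within the same-strand protein kinase gene CsaV3_4G030060, had 1.38, 1.83 and 0.784 FPKM in HT0h, 2.59, 2.69 and 3.23 in HT3h and 4.55, 3.58 and 2.86 in HT6h. It was called at 6 h (1.45; limma, adjusted p = 0.027), a call lost without HT0h_1, HT0h_3, HT6h_1 or HT6h_3 (1.12 to 1.77), and the host gene had log2 fold changes of -0.15 and -0.08, not called. CsaV3_2G009910, the most abundant of this class, is a gene of the transcription elongation factor SPT6 by its other domains. It had 23.1, 24.5 and 24.0 FPKM in HT0h, 34.2, 31.3 and 37.7 in HT3h and 31.8, 22.8 and 35.1 in HT6h, with log2 fold changes of 0.59 and 0.49 inside the fold threshold.

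None of the 9 expressed members of the other reverse transcriptase class and none of the 5 expressed integrase members was called at either time by limma, while 2 reverse transcriptase members at 6 h, and 2 integrase members at 3 h and 1 at 6 h, had an unadjusted p under 0.05. Of all 19416 genes tested, 8565 had such a p at 3 h and 9320 at 6 h. Over all 9 libraries 2 integrase members were called higher at 3 h (40%, beside 10.9% of all genes) and 1 at 6 h (20%, beside 12.3%). The leading reverse transcriptase member, on scaffold53, had 2.87, 3.52 and 4.27 FPKM in HT0h, 2.07, 1.01 and 3.35 in HT3h and 2.05, 1.77 and 2.49 in HT6h. The leading integrase member, CsaV3_5G015310, had 1.91, 3.74 and 3.32 FPKM in HT0h, 9.34, 8.28 and 4.80 in HT3h and 5.21, 8.67 and 6.45 in HT6h. Its heated libraries were all higher, with log2 fold changes of 1.19 and 0.98 that missed the call over 7 libraries (limma, adjusted p = 0.051 and 0.082) and were called over all 9 (1.29 and 1.17).

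Maturases help introns fold out of organelle transcripts, and the members with a reverse transcriptase and a maturase domain are nuclear genes on chromosome 3. CsaV3_3G049580 had 5.99, 5.82 and 6.70 FPKM in HT0h, 11.54, 10.3 and 14.8 in HT3h and 12.97, 7.90 and 14.4 in HT6h. All heated libraries were higher, and the log2 fold changes were 1.07 and 1.14 (limma, adjusted p = 0.004 and 0.0027), but 0.96 and 0.88 over all 9 libraries, and 0.89 at 3 h without HT3h_3, none of them called. CsaV3_3G005150 had 4.29, 4.48 and 4.44 FPKM in HT0h, 4.84, 5.86 and 6.61 in HT3h and 4.99, 6.89 and 5.49 in HT6h, with log2 fold changes of 0.35 and 0.24, and lies wholly within the same-strand gene CsaV3_3G005140.

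Between 6 h and 3 h no member was called by limma, where 0.201% of all genes were. Of the 74, 6 had an unadjusted p under 0.05 by limma, beside 2380 of all 19416 genes tested. Voom on the recovered fragments gave 0 calls, with an unadjusted p under 0.05 for 7 of 76 members tested. The log2 change from 3 h to 6 h was -1.57 for CsaV3_UNG167280 and -1.74 for CsaV3_1G031080, both lower at 6 h (limma, adjusted p = 0.18 and 0.17). With array weights over all 9 libraries, CsaV3_1G031080 was called lower at 6 h (-1.32; adjusted p = 0.047, within 0.047 to 0.39 over the alternatives).

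Neighbouring genes were listed for the members. The share of all genes with a neighbour as close was not counted, so closeness is not given as a trait of the members. Of the 23 called members, 15 had a gene within 2 kb and 8 overlapped one, beside 45 and 15 of the 74 expressed. CsaV3_UNG167290, a model without a described domain, starts 173 bases beyond CsaV3_UNG167280 on the same strand. It was at 0 FPKM in HT0h, averaged 0.30 FPKM in HT3h and passed the expression limit through heated libraries only. Its log2 fold change depended on the pseudocount, at 2.01 in the reported fit and 0.38 with a pseudocount of 1. The call of the reported fit was lost with that pseudocount, with a replicate block, and without HT0h_1 or HT0h_3, and is no separate evidence. CsaV3_5G000760, which overlaps the hAT member CsaV3_5G000770 by 748 bases on the same strand, was called higher at both times (1.46 and 1.72). The gene next to CsaV3_5G014110 on the same strand, CsaV3_5G014100, had log2 fold changes of -0.97 at 3 h, not called, and -1.63 at 6 h, called. In contrast CsaV3_1G028560 and CsaV3_1G028580, beside CsaV3_1G028570, were not called at either time. Some neighbours were called against the direction of their member. CsaV3_3G015530, beside the rising CsaV3_3G015520, was called lower at both times (-1.41 and -1.12), while CsaV3_3G015510 on its other side was called higher at 3 h (1.09). CsaV3_1G011180, 170 bases from the falling CsaV3_1G011190 on the opposite strand, was called higher at both times (1.39 and 1.44).

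Other genes with domains found in mobile elements or in silencing proteins were counted from lists by domain. Such a domain does not show that a gene is a mobile element or takes part in silencing. Of 67 further genes with domains such as the MULE transposase or the FAR1 DNA-binding domain, 54 were tested. At 3 h, 14 were called higher (25.9%, beside 10% of all genes) and 2 lower (3.70%, beside 8.29%). Which of these genes belong to mobile elements was not tested. At 6 h, 11 were called higher (20.4%, beside 12.2%) and 3 lower (5.56%, beside 10%), and the median log2 fold changes were 0.30 and 0.32. Of 54 tested genes with domains of silencing proteins, the 2 methylase members included, 6 were called higher at each time (11.1%, near the 10% and 12.2% of all genes). At 3 h 2 were lower (3.70%, beside 8.29%) and at 6 h 3 (5.56%, beside 10%), with medians of -0.06 and -0.09. Over all 9 libraries 6 were lower at 3 h (11.1%, beside 9.57%) and 5 at 6 h (9.26%, beside 10.1%). RNA-dependent RNA polymerases, which make double-stranded RNA for small RNA production, rose in 2 of 6 cases (33.3% at each time, beside 10% and 12.2% of all genes). CsaV3_5G027970 had 0.0274, 0.0136 and 0 FPKM in HT0h, 1.298, 2.44 and 1.41 in HT3h and 4.54, 13.1 and 6.05 in HT6h, and CsaV3_5G028230 had 0 FPKM in HT0h, 0.294, 0.597 and 0.225 in HT3h and 1.64, 3.37 and 1.58 in HT6h. Both were higher at 6 h than at 3 h in every library, the reverse of the order in CsaV3_UNG167280. These 2 genes passed the expression limit through heated libraries only, which favours such calls, so the share of 33.3% is no separate evidence.

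Argonautes, the proteins that small RNAs guide, rose in 1 of 6 cases at 3 h (16.7%, beside 10% of all genes) and 2 at 6 h (33.3%, beside 12.2%). Most of the list pointed down, with 2 of 6 log2 fold changes above 0 at each time. Its median was -0.84 at 3 h and -0.90 at 6 h. CsaV3_1G014330 had 24.7, 24.1 and 23.0 FPKM in HT0h, 93.7, 106 and 97.6 in HT3h and 151, 146 and 112 in HT6h, with log2 fold changes of 1.99 and 2.44. Over all 9 libraries 2 of the 6 Argonautes were also called lower at 3 h (33.3%, beside 9.57%) and 1 at 6 h (16.7%, beside 10.1%). Of the 7 tested genes with a ribonuclease III domain, which Dicer proteins carry, 2 rose at each time (28.6%, beside 10% and 12.2% of all genes). Among them was CsaV3_3G007100 (1.52 and 1.83). Genes with the SAD/SRA domain, which reads methylated DNA, gave no call among 6 tested by limma, with 1 unadjusted p under 0.05 at each time. Such a p was held by 8565 of all 19416 genes tested at 3 h and by 9320 at 6 h. Of 28 genes with a SET domain, found in histone methylases among other proteins, 1 rose and 1 fell at 3 h (3.57% each, beside 10% and 8.29% of all genes). At 6 h 1 fell (3.57%, beside 10%). The SET gene that rose, CsaV3_2G010860 (1.06 at 3 h), also carries a Rubisco LSMT substrate-binding domain, so this list is not confined to histone methylases. Of the 5 DNA methylase genes, 1 was called lower at 3 h (20%, beside 8.29% of all genes) and 2 at 6 h (40%, beside 10%). Over all 9 libraries 2 were called lower at each time (40%, beside 9.57% and 10.1%).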

How the data were processed

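RNA was sequenced from 9 leaf samples. The authors deposited FPKM values for 24880 genes per library; per the labels' processing notes, CASAVA 1.8, HISAT2 2.0.5, StringTie 1.3.3b and featureCounts 1.5.0-p3 were used. FPKM times gene length gave whole fragments for 100% of values (within 0.02), scaled by size factors of 0.901 to 1.15. Libraries of a group differed beyond sampling noise (chi-square per degree of freedom 19.5 to 176.9). The study names 3 biological replicates per time; whether each library came from other plants is not given in the sources used here, so p-values measure the spread between these samples.

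Where the mean FPKM reached 0.1, genes were tested by limma 3.58.1 (R 4.3.3) on log2(FPKM + 0.1), with 3 times in 1 model, eBayes with trend, 4 residual degrees of freedom, over 19416 genes in 7 libraries; p-values were Benjamini-Hochberg adjusted over all of them. The script was tested on simulated data. Exact 95% intervals and the floor of 3 fragments cover counting error only. Members were sorted into 7 classes by domain. Named were the 10 largest called rises and falls per time (mean FPKM of 0.5 or more), the 10 most abundant members, class leaders, maturases, chromo members with listed domains, those at the expression limit, and neighbours. Members and lists were chosen with earlier results of these data known. Alternatives were the libraries, array weights, pseudocounts, filters, groups fitted, voom, scaling, a replicate block and leaving out each library.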

Additional observations from a re-analysis of the deposited data

How the results depend on the processing

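No called fold change reversed. Members called higher at 3 h, 14 in the reported fit, were 7 with a pseudocount of 1 and 9 to 14 without single libraries. Those called lower at 3 h, 3 as reported, were 5 over all 9 libraries, 5 with array weights over them, 5 with voom on fragments, 5 with voom over all 9 libraries (an alternative chosen after seeing the data) and 2 to 5 without single libraries. Higher calls at 6 h, 9 as reported, were 6 to 10 without single libraries, and lower calls at 6 h, 7 as reported, were 4 with scaling by counted fragments and 3 to 7 without single libraries. Between 6 h and 3 h, 1 member was called with array weights and 0 in the reported fit. Apart from the fit over all 9 libraries, the share of all genes called under the alternatives of this section is not given here. The member counts are therefore not read against it. The causes of these shifts were not tested. At 1 FPKM or more, 46 members counted as expressed. Class sums that moved by more than the spread were copia-type at 42.1 FPKM in HT0h and 58.8 in HT6h, hAT at 200.4 in HT6h and maturase at 20.9 in HT6h with scaling by counted fragments, and copia-type at 49.1 in HT6h over all 9 libraries.

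The replicate numbers were not taken as pairs. Deviations of same-numbered libraries correlated at -0.23 to 0.03 between heated and unheated groups, and between HT6h and HT3h at 0.04, 0.31 and 0.48 for numbers 1, 2 and 3, against -0.39 to 0.06 for different numbers; HT6h_1 correlated as well with HT3h_2 as with HT3h_1. With the replicate block over 7 libraries the calls were 9 higher and 2 lower at 3 h and 7 higher and 5 lower at 6 h; with the block over all 9 they were 13 and 5, and 11 and 5. Of 29 called named fold changes, 467 of 548 alternative values kept the call and 81 lost it; of 64 not called, 44 of 1205 gained one. Leaving out a library can leave 1 in a group, assumed to vary like the others. Members under about 1 FPKM rest on few fragments.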

Other observations

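Outside the chosen domains, 2 further genes described as gag-polyprotein aspartyl proteases, the enzyme that cuts the retroelement polyprotein, were among the 29 genes with no fragment in HT0h and 3 or more in each heated library. They were looked up after that count had been seen, and they are the only genes with that domain that are not members. CsaV3_UNG240600 had 133, 107 and 252 fragments in the HT3h libraries and 87, 113 and 88 in the HT6h libraries. CsaV3_6G009880 had 47, 43 and 89 fragments in HT3h and 21, 37 and 24 in HT6h. These values are a description, since both genes were chosen for this pattern. CsaV3_5G028230, one of the rising RNA-dependent RNA polymerases, was in the same group of 29 with 22, 50 and 18 fragments in HT3h and 124, 294 and 131 in HT6h.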
